A study of Mus musculus with 18 samples.

Results

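The serpin genes of the mouse were examined in H3K9me3 ChIP-seq peak lists of E14TG2a embryonic stem cells. A gene was taken as a member when its symbol in the deposited annotation was Serpin followed by a clade letter from a to i and a number, which gave 64 genes of 35858 gene loci on 21 chromosomes. No measured value entered that choice. The study asked how H3K9me3 heterochromatin is set up and kept, and 6 of its 18 samples have a peak list used here: wild-type (WT) cells, Uhrf1 KO cells and Dhx9 KO cells, with 2 libraries each. All 3 genotypes are of the E14TG2a line, grown in serum with LIF, and were precipitated with the same H3K9me3 antibody. The Uhrf1 KO lines were derived from single cells by CRISPR-Cas9 in a line that carries the 8x-tetO-eGFP reporter and an inducible TetR-KRAB repressor. The paper describes the WT cells set beside them as 8x-tetO-eGFP cells too. It is not given in the sources used here whether both Uhrf1 KO libraries came from 1 clone or how the Dhx9 KO cells were made. The methods describe biological replicates, and errors below are the spread of 2 libraries. With 2 libraries against 2, the smallest two-sided p an exact permutation test can reach is 0.333, so the values of single genes are given without a test.

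Serpins are a superfamily of proteins built on one fold. Most inhibit serine proteases by offering a flexible loop as bait: the protease cuts the loop and is trapped by the change of shape that follows. Clade a serpins are mostly secreted by the liver, among them α1-antitrypsin and α1-antichymotrypsin, which restrain neutrophil elastase and cathepsin G, while clade b serpins stay mostly inside cells and guard them against their own granzymes and cathepsins. A few members, such as the hormone carriers and the collagen chaperone Serpinh1, inhibit no protease. Many clade a and clade b genes have been copied in tandem in the mouse. H3K9me3 is the histone mark of heterochromatin, and UHRF1 brings the maintenance DNA methyltransferase to replicated CpG sites, while DHX9 is an RNA and DNA helicase.

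By position the 64 genes fell into 4 classes, a cluster being 3 or more genes of 1 clade with gaps of at most 200 kb. The Serpina cluster held 25 genes over 798 kb of chromosome 12 (103616675 to 104414334, mm10). A Serpinb cluster of 12 genes covered 751 kb of chromosome 1 (106861180 to 107611795), and another of 15 genes covered 1161 kb of chromosome 13 (32842092 to 34002794). The remaining 12 genes stood outside these clusters, with Serpinf1 and Serpinf2 as neighbours on chromosome 11. Each gene's window was its transcripts with 5 kb on each side, and the called share is the part of a window that lies in peaks.

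Stretches of DNA on which the comparisons below turn are shown 5′ to 3′ with CpG dinucleotides, the sites of DNA methylation, in capitals. They were read from the mm10 reference (GRCm38.p6), on the plus strand for regions and on the strand of the gene for promoters. The first lies in an intron of Serpina1a (chr12:103854950-103855249), in the region whose read counts were lower in Dhx9 KO cells. It holds 1 CpG.

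Serpina1a region: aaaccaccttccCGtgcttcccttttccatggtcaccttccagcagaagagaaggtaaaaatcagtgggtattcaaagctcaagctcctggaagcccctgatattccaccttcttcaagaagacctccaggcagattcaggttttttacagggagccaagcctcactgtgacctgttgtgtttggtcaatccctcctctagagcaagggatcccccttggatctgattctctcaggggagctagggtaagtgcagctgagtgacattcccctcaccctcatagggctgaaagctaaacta

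The next pair belongs to the 2 strongest regions called in WT cells and absent from the Uhrf1 KO lists, beyond the 3′ ends of Serpinb3c (chr1:107266050-107266349) and Serpinb3b (chr1:107148350-107148649), with 1 CpG each. The bases shown were also uncalled in 1 Dhx9 KO library each, replicate 2 at Serpinb3c and replicate 1 at Serpinb3b. The 2 regions are also copies of one another, and the whole regions aligned over 800 columns with 92.6% identity. They end 4600 and 4960 bp from the transcripts of their genes. No 100-base stretch of either region recurred exactly on chromosome 1.

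Serpinb3c region: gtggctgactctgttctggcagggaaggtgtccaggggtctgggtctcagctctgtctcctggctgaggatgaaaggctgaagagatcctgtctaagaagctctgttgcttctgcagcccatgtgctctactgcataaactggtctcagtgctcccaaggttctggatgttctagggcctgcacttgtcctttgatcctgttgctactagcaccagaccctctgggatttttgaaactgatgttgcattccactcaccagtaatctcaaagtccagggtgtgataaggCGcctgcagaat

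Serpinb3b region: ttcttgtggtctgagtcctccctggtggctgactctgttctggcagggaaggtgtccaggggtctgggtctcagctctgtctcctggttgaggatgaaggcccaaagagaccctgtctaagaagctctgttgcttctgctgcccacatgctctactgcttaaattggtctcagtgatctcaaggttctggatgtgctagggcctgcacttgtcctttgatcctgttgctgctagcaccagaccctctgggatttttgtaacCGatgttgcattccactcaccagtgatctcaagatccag

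The fourth is from the strongest region called in both Uhrf1 KO libraries and in no WT library, in an intron of Serpinb6a (chr13:33937150-33937449), with 5 CpGs. The bases shown were also called whole in Dhx9 KO replicate 2, and the centre of the region lies within the gene 1110046J04Rik as well.

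Serpinb6a region: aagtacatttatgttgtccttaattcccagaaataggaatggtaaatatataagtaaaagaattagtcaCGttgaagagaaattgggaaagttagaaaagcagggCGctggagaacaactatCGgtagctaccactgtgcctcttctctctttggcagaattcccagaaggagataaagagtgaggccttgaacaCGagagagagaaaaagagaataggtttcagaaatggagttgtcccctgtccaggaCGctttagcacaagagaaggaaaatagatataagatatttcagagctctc

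The last 3 are promoters from RefSeq, the 250 bases before the transcript start: Serpinf1 (chr11:75422624-75422873, minus strand), which lay wholly under peaks of both WT libraries and under none in the 4 knockout lists, Serpina1a (chr12:103863620-103863869, minus strand), of which 0 of 250 bases were called in any library although peaks lay within 1 kb of the start on both sides in all 6, and Serpina1c (chr12:103904951-103905200, minus strand), which was called whole in all 6. They hold 2, 4 and 3 CpGs. The Serpina1a and Serpina1c promoters were 91.4% identical over their alignment, the closest of 10 pairs among Serpina1a to Serpina1e, and the most distant pair, Serpina1d and Serpina1e, was 58.8% identical. RefSeq promoters were at hand for 54 of the 64 genes.

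Serpinf1 promoter: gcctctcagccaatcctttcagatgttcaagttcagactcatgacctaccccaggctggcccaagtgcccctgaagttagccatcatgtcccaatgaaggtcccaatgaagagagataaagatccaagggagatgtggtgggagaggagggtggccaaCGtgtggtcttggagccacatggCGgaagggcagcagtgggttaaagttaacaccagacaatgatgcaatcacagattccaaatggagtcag

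Serpina1a promoter: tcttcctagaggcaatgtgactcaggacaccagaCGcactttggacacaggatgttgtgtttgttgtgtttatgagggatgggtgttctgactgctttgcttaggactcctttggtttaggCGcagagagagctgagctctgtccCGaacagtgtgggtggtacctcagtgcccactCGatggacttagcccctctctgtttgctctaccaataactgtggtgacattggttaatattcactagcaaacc

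Serpina1c promoter: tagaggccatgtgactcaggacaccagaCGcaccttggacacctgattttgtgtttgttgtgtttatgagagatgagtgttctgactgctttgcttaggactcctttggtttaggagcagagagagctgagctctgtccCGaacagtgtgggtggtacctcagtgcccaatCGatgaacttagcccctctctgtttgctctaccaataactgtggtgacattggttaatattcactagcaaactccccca

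The 6 lists held 70195 to 125453 peaks, covering 7.69% to 15.7% of the known bases of the genome. Uhrf1 KO replicate 1 was the smallest on both counts, with 6703081 reads in peaks against 16966576 to 20875020 in the other libraries, and Uhrf1 KO replicate 2 had 1.85 times its ChIP library size. At peaks with the same limits, WT and Dhx9 KO lists had the same background count in 100% of cases, and the Uhrf1 KO lists shared the background count of WT replicate 1 in 4.29% and 2.27%. The Uhrf1 KO peaks were thus called on another background, and for peak calls genotype and background cannot be told apart. A stretch without a peak has no read count in these lists, so absence of a peak means only that the caller made no call at that depth. The lists hold no expression: of 6 embryonic stem cell genes only Nanog and Esrrb had a promoter peak in any library, Pou5f1 and Sox2 had none, and neither the cell identity nor the knockouts can be checked further.

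In WT cells the Serpina cluster was covered by H3K9me3 peaks over most of its length, and the other serpin genes were covered far less. Peaks took up 70.7% and 67.9% of the Serpina windows in WT replicates 1 and 2 (69.3% ± 1.97, SD, n = 2). They took up 13.1% and 14.2% of the Serpinb windows on chromosome 13, 3.31% and 2.23% of those on chromosome 1, and 20.8% and 17.9% of the windows outside the clusters. The values of the 2 WT libraries did not overlap between any of the 4 classes. Over all 35858 genes the median called share was 8.86% and 8.30%, and over the 64 serpin genes it was 26.6% and 28.3%. Between genes of the Serpina cluster the peaks were sparser, and 58.4% of the whole span was called in WT replicate 2. A peak lay in the window in both WT libraries for 47 of 64 serpin genes, beside 59.7% of all genes: for 25 of 25 in the Serpina cluster, 10 of 15 on chromosome 13, 5 of 12 on chromosome 1 and 7 of 12 outside. Serpinb3a, Serpinb8, Serpind1 and Serpina7 had no peak in any of the 6 libraries.

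**Figure D1:**
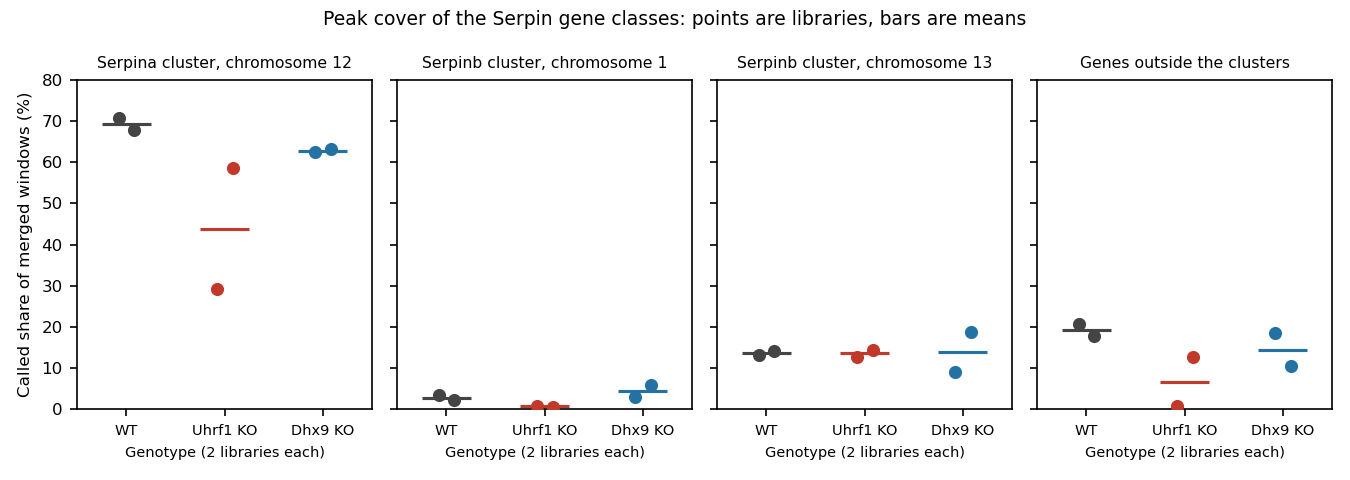
Called share of the merged gene windows (percent, y axis) of the 4 serpin classes by genotype. Points are the 2 libraries of a genotype and horizontal lines their means. The Serpina cluster lies between 62.4% and 70.7% in WT and Dhx9 KO libraries and at 29.2% and 58.5% in Uhrf1 KO libraries.

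Promoters of the Serpina cluster were marked in most cases. A peak within 1 kb of a transcript start was present in both WT libraries for 28 serpin genes, beside 23.7% of all genes. Of these, 20 were in the Serpina cluster, 6 on chromosome 13 and 2 outside, and none was on chromosome 1. The 5 Serpina genes without one in both WT libraries were Serpina3f, Serpina3g, Serpina3h, Serpina3i and Serpina3n, all copies of the α1-antichymotrypsin gene. On chromosome 13 the 6 were Serpinb1b and Serpinb1c, copies of the neutrophil elastase inhibitor, Serpinb6b and Serpinb6d, and Serpinb9c and Serpinb9g, relatives of the granzyme B inhibitor. The 2 outside were Serpinf1, the secreted factor PEDF, and Serpinf2, α2-antiplasmin.

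Within the Serpina cluster the WT shares ranged widely among neighbours. The pseudogene Serpina4-ps1 was called over 100.0% and 95.8% of its window, Serpina1f over 95.4% and 93.1%, and Serpina3a over 86.4% and 94.4%. These are the 3 highest of the serpin genes by the mean of both libraries, at percentiles 99.8, 99.4 and 99.0 of all gene windows. At the other end Serpina1e, an antitrypsin copy, had 35.5% and 22.5%, Serpina3f had 42.2% and 49.4%, and Serpina6, the cortisol carrier, had 51.4% and 44.6%. As groups, the 6 antitrypsin copies Serpina1a to Serpina1f had 73.9% and 66.5% of their merged windows called. The 11 antichymotrypsin copies named Serpina3 had 68.9% and 67.7%, and the other 8 genes had 71.2% and 69.7%.

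Tandem copies share sequence, which limits where a read can be placed. The study's aligner places a read that matches several sites equally well at one of them. Of all 100-base stretches in a gene window, the share that recurred exactly elsewhere on the same chromosome had a median of 1.83% over the Serpina cluster and was 10.1% to 19.9% for Serpina1a to Serpina1e. It was 15.3% for Serpina10 and reached 4.90% among the Serpina3 genes. On chromosome 13 the highest shares were those of Serpinb9f and Serpinb9g, with 32.6% and 32.8%, and on chromosome 1 that of Serpinb3a, with 7.58%. The study's reads were longer than 100 bases, so these shares may overstate how many reads match several sites. Copies on other chromosomes were not searched, and a recurring stretch need not lie in another serpin gene. For these genes reads of one site may be counted at another.

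On chromosome 13 the peaks were scattered. Serpinb6c was called over 49.6% and 44.0% of its window in WT replicates 1 and 2, and Serpinb6b over 40.3% and 36.6%; both are copies of a cathepsin G inhibitor gene. Serpinb9c followed with 21.5% and 27.96%. Serpinb1a and Serpinb9e had no WT peak at all. On chromosome 1, where the epidermal genes lie, the 3 highest means belonged to Serpinb7 with 11.0% and 3.00%, Serpinb5, known as maspin, with 3.57% and 9.16%, and Serpinb10 with 6.23% and 4.79%. The 8 epidermal genes together had 3.45% and 2.68% called, and 4 of the 8 had a peak in both WT libraries. Only small parts of these windows were therefore marked.

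Outside the clusters the genes ranged from no peak to most of a window. Serpinf2 was called over 79.4% and 58.5%, and its neighbour Serpinf1 over 50.5% and 48.7%. Serpinh1, the collagen chaperone, had 27.0% and 32.6%, Serpine2, a thrombin inhibitor of tissues, 30.7% and 31.2%, and Serpinc1, antithrombin, 26.2% and 20.3%. The genes for neuroserpin and its relative, Serpini1 and Serpini2, had no WT peak, and Serping1, the C1 inhibitor of complement, had one only in replicate 1, over 8.96%.

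**Figure D2:**
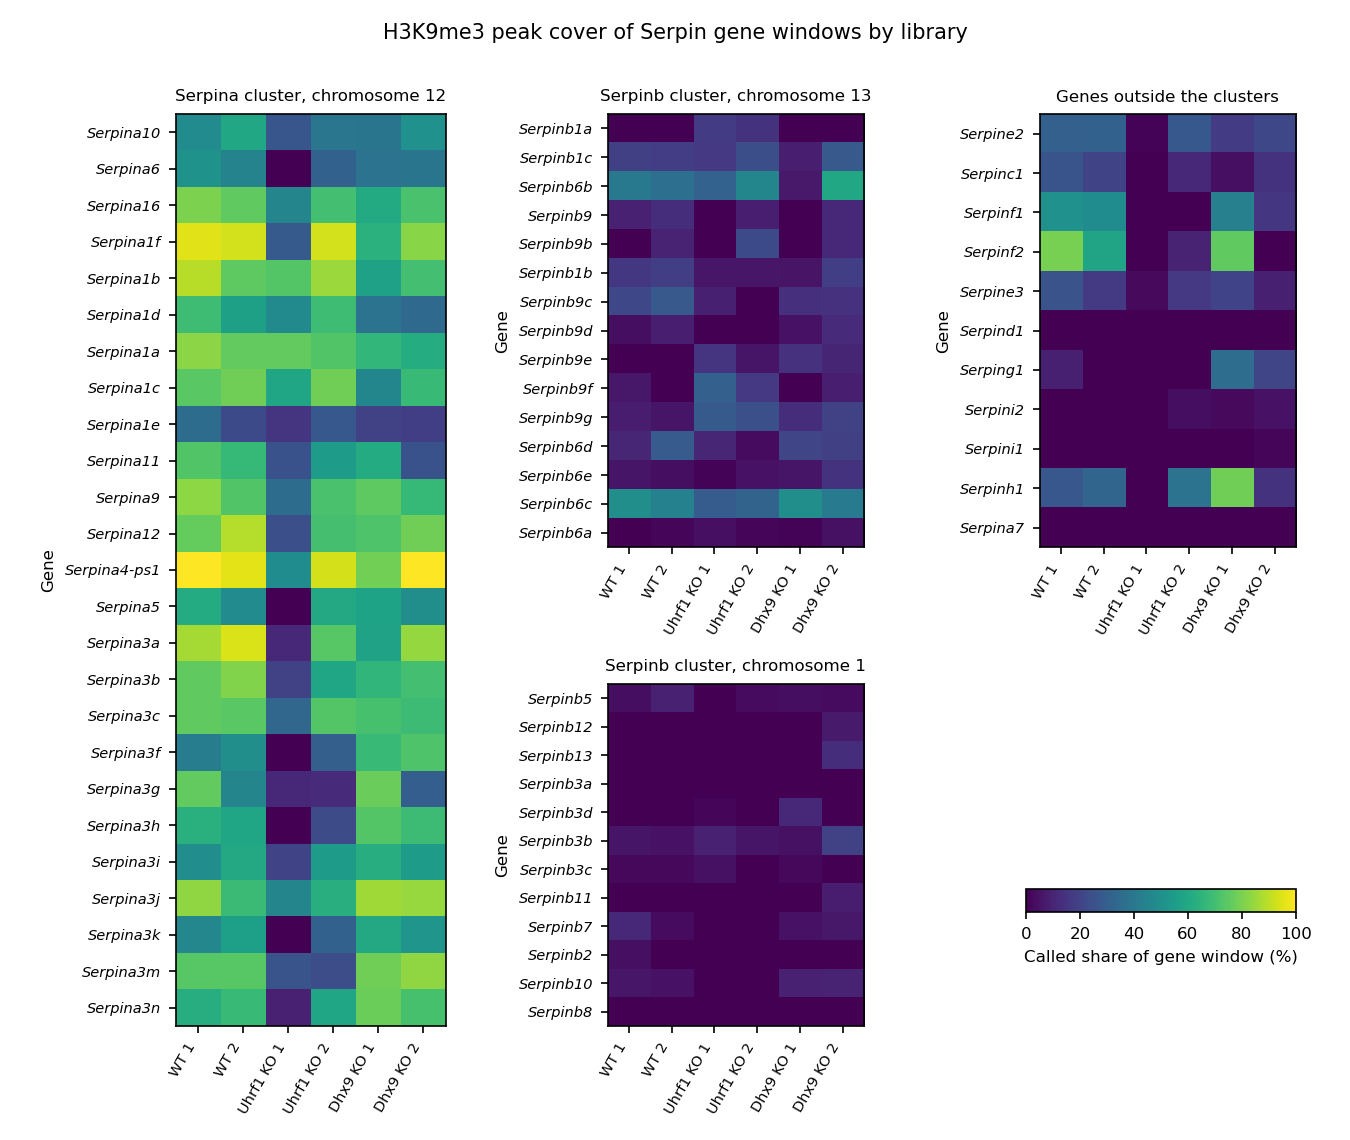
Called share of the serpin gene windows reported singly (colour, 0 to 100 percent) by gene (rows, in genome order within each class) and library (columns). The 25 Serpina genes carry most of the cover in every library. Uhrf1 KO replicate 1 is darker than WT in most Serpina and outside genes, and Serpinb9f and Serpinb9g on chromosome 13 are brighter in both Uhrf1 KO libraries.

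In both Uhrf1 KO libraries peak cover was lower over most Serpina genes other than the antitrypsin copies, whose merged windows were lower in replicate 1 alone. In Uhrf1 KO replicates 1 and 2 the called share of the Serpina windows was 29.2% and 58.5%, both below the 2 WT values. It was 0.672% and 12.7% for the genes outside and 0.796% and 0.588% for the Serpinb genes of chromosome 1, again below WT in both libraries. On chromosome 13 it was 12.8% and 14.3%, which overlapped WT. In the Serpina cluster the mean of the Uhrf1 KO libraries was 43.9% ± 20.7 (SD, n = 2), so the libraries lay farther from each other than their mean lay from that of WT. The median over all genes was 0% and 2.20%. Between the genes of chromosome 13 the picture differed from that of the windows, and of its whole span 23.3% and 18.5% was called in Uhrf1 KO cells against 15.5% and 15.9% in WT.

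Gene by gene, 30 of 64 windows had a lower called share in both Uhrf1 KO libraries than in both WT libraries, beside 34.6% of all gene windows. They were 17 of 25 in the Serpina cluster, 5 of 15 on chromosome 13, 5 of 12 outside and 3 of 12 on chromosome 1. A window can be lower only where both WT libraries have a peak, as 47 of 64 serpin windows and 59.7% of all windows did. The same limit holds for the counts of lower windows in Dhx9 KO cells below. The Serpina genes were unevenly spread: 10 of the 11 Serpina3 genes were lower, as were 7 of the 8 other genes, and 0 of the 6 antitrypsin copies. This 0 rests largely on replicate 2. Over the merged antitrypsin windows Uhrf1 KO replicates 1 and 2 had 50.5% and 70.5%, against 73.9% and 66.5% in WT. Serpina1a and Serpina1f missed the count by a tie, Serpina1f with 28.2% and 93.1% against 95.4% and 93.1% in WT. Leaving out the smaller Uhrf1 KO library, replicate 1, 33 windows were lower, beside 35.8% of all genes, among them 10 of the Serpina3 genes, 7 of the others and 1 antitrypsin copy. With an equal number of peaks taken from each list, 16 of 64 were lower (25%, beside 13.5% of all genes), among them 3, 6 and 0 of these groups.

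The contrast shows in single genes. Serpina3m was called over 74.0% in each WT library and over 26.0% and 23.6% in the Uhrf1 KO libraries. Serpina3h had 63.6% and 58.8% in WT and 0% and 23.0% in Uhrf1 KO cells, and Serpina3g had 75.8% and 45.6% against 11.2% and 12.5%. In these 3 genes both knockout values lie below both WT values. Serpina1a had 82.8% and 75.9% in WT and 75.9% and 72.9% in Uhrf1 KO libraries. Its higher Uhrf1 KO value equalled its lower WT value, so only a tie kept it from being counted as lower. Serpina1b had 89.1% and 75.1% against 73.1% and 85.1%. For Serpina1b the ranges overlap. Serpina6 had no peak in Uhrf1 KO replicate 1 and 30.9% in replicate 2. Serpina5, the protein C inhibitor, likewise had none in replicate 1, but its 60.3% in replicate 2 lay inside the WT range of 48.4% to 61.4%.

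Higher cover in both Uhrf1 KO libraries was found in 5 windows, beside 5.6% of all genes, and all 5 lie on chromosome 13: Serpinb1a, Serpinb6a, Serpinb9e, Serpinb9f and Serpinb9g. Serpinb9g had 7.54% and 5.66% in WT cells and 28.3% and 24.6% in Uhrf1 KO cells. In Dhx9 KO libraries Serpinb9g had 13.2% and 19.8%, and Serpinb9e, which had no WT peak, had 14.1% and 10.4%. Both were thus higher than WT in that knockout too. Serpinb9f had 6.57% and 0% in WT cells and 30.6% and 16.5% in Uhrf1 KO cells. Serpinb1a had no WT peak and 17.8% and 14.7% after loss of UHRF1. Serpinb6a had 0% and 1.26% in WT, 4.22% and 1.69% in Uhrf1 KO and 0.84% and 4.64% in Dhx9 KO cells. With replicate 2 as the only knockout library 11 windows were higher, beside 16.1% of all genes. Serpinb9f and Serpinb9g are the 2 genes whose sequence recurs most on the chromosome, and the part of this in their values was not tested.

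**Figure D3:**
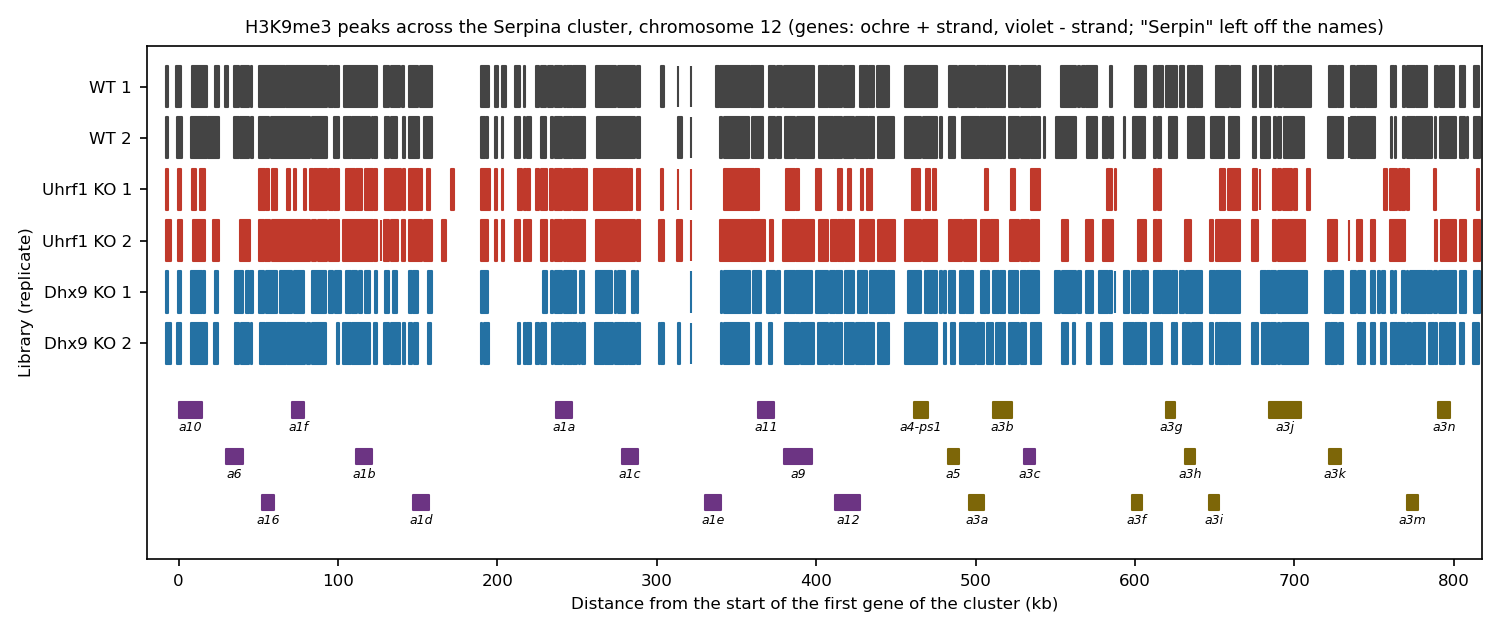
Peaks of the 6 libraries (rows) across the Serpina cluster, in kb from the start of its first gene, above the genes (ochre plus strand, violet minus strand, names without Serpin). Peaks fill most of the cluster in WT and Dhx9 KO libraries. In Uhrf1 KO replicate 1 the called share of the Serpina3 genes at the right was 18.0%, against 68.9% in WT replicate 1, and that of the antitrypsin copies was 50.5%.

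Peaks of the WT and Uhrf1 KO lists were then merged into regions. Of 118 regions that touched a serpin window, 87 had a peak of both WT libraries, and 21 of these had none in either Uhrf1 KO library. This share of 24.1% stands beside 24.2% of all such regions in the genome, where a region of that kind is called lost. Losses fell on 5 of 41 regions in the Serpina cluster, 6 of 19 on chromosome 13, 4 of 7 on chromosome 1 and 6 of 20 outside the clusters. In 22 further regions Uhrf1 KO replicate 2 alone kept a peak, and in 3 replicate 1 alone did. By their highest peak, lost regions had been weaker in WT cells. The median log2 fold over background was 0.83 (the lower of both libraries) against 1.75 for the 41 kept regions. Lost regions were also shorter, with a median of 3200 bp against 7600 bp, and a longer region can hold more peaks from which the highest is taken. Over all regions the median log2 folds were 0.71 and 1.29 and the median lengths 3400 and 5200 bp. Without Uhrf1 KO replicate 1, 24 of 86 regions were lost (27.9%, beside 25.7% of all), and without replicate 2, 45 of 91 (49.5%, beside 47.9%). The count was 10 among peaks of a log2 fold of at least 1.

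The strongest lost regions were the paired copies beside the Serpinb3 genes, relatives of squamous cell carcinoma antigen. At Serpinb3c (chr1:107265801-107266600) WT replicates 1 and 2 had 61 and 60 reads at log2 folds of 3.09 and 3.12. At Serpinb3b (chr1:107148001-107149000) they had 46 and 60 reads at 2.36 and 2.32. These 2 regions are short and carry few reads. In Dhx9 KO cells the Serpinb3c region had a peak in replicate 1 alone and the Serpinb3b region in replicate 2 alone. Both reach the gene windows only at the edge, and the windows held other peaks, so that the called share of Serpinb3b was 9.33% and 5.83% in Uhrf1 KO cells against 5.83% and 4.90% in WT. On the same chromosome Serpinb10 lost an intron region (chr1:107554201-107556800) with 120 and 92 WT reads, and Serpinb7 lost one (chr1:107438801-107440000) with 59 and 79.

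Neighbouring losses lay over Serpinf1 and on both sides of Serpinf2. In WT replicates 1 and 2, 3 lost regions of Serpinf1 held 237 and 233 reads (chr11:75412201-75418600, intron), 112 and 136 reads (chr11:75419801-75423600, promoter) and 86 and 73 reads (chr11:75424201-75426600). Their log2 folds were low, from 0.37 to 0.97. No part of the Serpinf1 window was called in Uhrf1 KO cells, and 10.1% of that of Serpinf2 was, in replicate 2 alone. That peak, with 91 reads at a log2 fold of 1.77, lies in the region over Serpinf2 itself (chr11:75430801-75442000), which was therefore not lost. In Dhx9 KO replicates 1 and 2 the called share was 43.4% and 15.9% at Serpinf1 and 75.4% and 0% at Serpinf2. Serpinc1 lost an intron region of 6.4 kb (chr1:160983201-160989600) with 206 and 90 WT reads.

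Among the promoters on chromosome 13, those of Serpinb1b (chr13:33082801-33086000, 102 and 129 WT reads), Serpinb9c (chr13:33157601-33160600, 70 and 82 reads) and Serpinb6d (chr13:33661001-33664600, 49 and 102 reads) lost their peaks. Serpinb9d and Serpinb6c had lost regions in an intron or outside genes. In the Serpina cluster the 5 lost regions touched Serpina6 (2 regions), Serpina9 and Serpina11, Serpina3g and Serpina3h, and Serpina3m and Serpina3n. The longest of them, between Serpina3m and Serpina3n (chr12:104392801-104402800), had 317 and 384 WT reads. None touched an antitrypsin copy.

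Regions gained in Uhrf1 KO cells against WT numbered 3 of the 45 with a peak in both of its libraries, or 6.67%, beside 8.51% of all regions, and all 3 are on chromosome 13. The strongest, in an intron of Serpinb6a (chr13:33936401-33938200), held 49 and 66 reads at log2 folds of 2.07 and 1.61. Another lies over an exon of Serpinb1a (chr13:32841401-32844800, 51 and 82 reads) and the third before Serpinb9e (chr13:33245201-33248400, 70 and 59 reads). Leaving out Uhrf1 KO replicate 1 or 2 raised the count to 7, or 9.59% and 12.7%, beside 14.7% and 21.1% of all regions. In base composition the 21 lost regions had a median of 6.5 CpGs per kb, the 41 kept ones 7.0 and the 3 gained ones 7.06, while over all regions the medians were 10.0, 10.1 and 8.18. Soft-masked repeats made up 16.1% of the lost and 19.8% of the kept serpin regions by median, beside 20.5% and 37.1% over all regions.

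**Figure D4:**
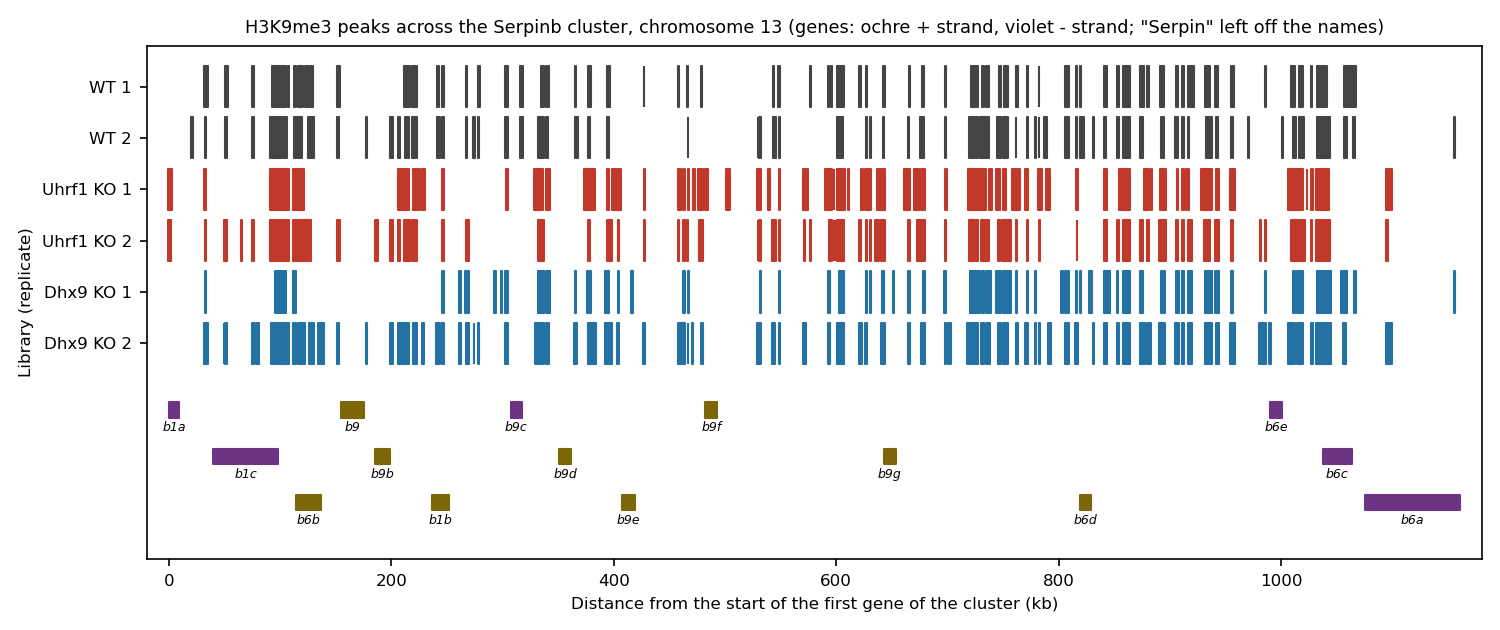
Peaks of the 6 libraries (rows) across the Serpinb cluster of chromosome 13, in kb from the start of its first gene, above the genes (ochre plus strand, violet minus strand, names without Serpin). Peaks are scattered in all libraries. At 0 kb the Serpinb1a peak is present in the Uhrf1 KO libraries and absent from the other 4.

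Where peaks were kept, read counts could be compared directly. Regions called over at least 80% of their length in all 4 libraries were tested across the genome with edgeR: of 2528, 5.54% were lower in Uhrf1 KO cells and 3.2% higher at an adjusted p under 0.05. Of these, 6 touched a serpin window, and 0 passed in edgeR, with 2 at an unadjusted p under 0.05 and 0 passing in DESeq2. The 6 serpin regions had a median log2 change of -0.13, beside -0.01 over all regions tested. The smallest adjusted p belonged to the 3′ part of Serpina1a (chr12:103852801-103857400), with 438 and 331 reads in WT and 140 and 364 in Uhrf1 KO libraries. Its log2 change was -0.43 (SE 0.14), with an adjusted p of 0.0784 in edgeR. An intron region of Serpinb1c (chr13:32933401-32941000) changed in the other direction, with 353 and 367 WT reads against 291 and 625, a log2 change of 0.34 (SE 0.12) and an adjusted p of 0.0978 in edgeR. It passed when the called length was left out of the model, at an adjusted p of 0.0142. The other 4, at Serpina1a, Serpina1c and Serpinb1b, had log2 changes between -0.23 and -0.07. When all library sizes were set equal, the median of all regions moved to -0.23, and 0 regions passed in edgeR, with 5 at an unadjusted p under 0.05.

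In Dhx9 KO cells peak cover was lower over the antitrypsin copies, while the Serpina3 genes were split in both directions. In Dhx9 KO replicates 1 and 2 the called share of the Serpina windows was 62.4% and 63.2%, below both WT libraries (62.8% ± 0.581, SD, n = 2). The other classes overlapped WT, with 8.99% and 18.7% on chromosome 13, 2.97% and 5.89% on chromosome 1 and 18.5% and 10.4% outside the clusters. In all, 17 of 64 windows were lower in both Dhx9 KO libraries, beside 17.6% of all genes, and 10 were higher, beside 10.8%. The lower ones were 12 in the Serpina cluster, 4 outside and 1 on chromosome 13. All 6 antitrypsin copies were among them, with 3 of the Serpina3 genes and 3 of the other 8. The higher ones included 5 Serpina3 genes: Serpina3f, Serpina3h, Serpina3j, Serpina3m and Serpina3n. On chromosome 13 they were Serpinb9e and Serpinb9g, which were also higher in Uhrf1 KO cells. With an equal number of peaks per list, 6 antitrypsin copies were lower, and 4 Serpina3 genes were lower and 3 higher. In that setting 20 of 64 windows were lower (31.2%, beside 19.4% of all genes) and 8 higher (12.5%, beside 9.68%).

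The 2 knockouts share the same WT libraries, and their values for the antitrypsin copies are given side by side. Over their merged windows WT libraries had 73.9% and 66.5%, Uhrf1 KO libraries 50.5% and 70.5%, and Dhx9 KO libraries 48.1% and 55.3%, so that the 2 knockouts overlapped. Serpina1d had 68.8% and 56.9% in WT, 48.0% and 68.9% in Uhrf1 KO, and 37.9% and 34.0% in Dhx9 KO libraries. Serpina1b had 57.1% and 70.1% in Dhx9 KO libraries, and its promoter peak was present in both WT and both Uhrf1 KO libraries and in neither Dhx9 KO library. The Serpina3 genes had 18.0% and 48.2% in Uhrf1 KO and 72.9% and 70.1% in Dhx9 KO libraries. Serpina3f, for one, had 42.2% and 49.4% in WT, 0% and 30.1% in Uhrf1 KO, and 67.5% and 72.4% in Dhx9 KO libraries. The difference between the knockouts was not tested, since they were called on different backgrounds.

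Few serpin regions came or went whole in Dhx9 KO cells. Of 84 regions with a peak of both WT libraries, 3 had none in either Dhx9 KO library (3.57%, beside 6.97% of all regions), and 63 were kept. Of these 3, 2 lie in introns of Serpine2, with 82 and 94 WT reads (chr1:79802601-79806000) and 101 and 110 reads (chr1:79834601-79838000). The third is the Serpinb9c promoter, which was also lost in Uhrf1 KO cells against the same WT libraries. Of 72 regions with a peak in both Dhx9 KO libraries, 4 were new (5.56%, beside 8.74%). They lie at Serpinb10 (chr1:107542601-107545200, 42 and 85 reads), Serpina5 (chr12:104096601-104098400, 57 and 75 reads), Serpinb9e (chr13:33244801-33247000, 53 and 98 reads) and Serpini2 (chr3:75260401-75262200, 55 and 90 reads). The region before Serpinb9e overlaps the one gained in Uhrf1 KO cells. Serping1 was called over 35.8% and 20.9% of its window in Dhx9 KO cells, against 8.96% and 0% in WT. Leaving out 1 library raised the lost regions to between 7 and 14 and the gained ones to between 5 and 17. The lost share was then 7% to 15.7%, beside 14% to 17.6% of all regions, and the gained share 6.49% to 16.5%, beside 14.4% to 22.3%.

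Read counts fell at 1 serpin region in Dhx9 KO cells, the 3′ part of Serpina1a (chr12:103852801-103857400), whose DNA is shown above. It had 438 and 331 reads in WT replicates 1 and 2 and 213 and 234 in Dhx9 KO replicates 1 and 2, or 95.2 and 75.2 against 46.3 and 50.9 reads per kb called. The groups do not overlap, and how often this holds over all tested regions was not counted. Its log2 fold over the background, which these 4 lists share, was 2.65 and 2.40 in WT and 1.45 and 1.59 in Dhx9 KO libraries. In edgeR the log2 change was -0.80 (SE 0.17), with an adjusted p of 0.0319 over 4701 regions, of which 0.553% were lower and 0.0425% higher. The adjusted p was 0.0163 in DESeq2, 0.125 with equal library sizes, 0.0932 without the length term and 0.155 among all regions called in every library. Leaving out WT replicate 1 or 2 raised it to 0.885 and 0.287 in edgeR, and exact copies made up 17.3% of the 100-base stretches of this region.

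The other 7 serpin regions tested did not pass. Serpina1a next to it (chr12:103858201-103863600) had 391 and 322 reads in WT and 219 and 219 in Dhx9 KO libraries, with a log2 change of -0.64 and an adjusted p of 0.126 in edgeR. Serpina1d (chr12:103761001-103767200) had 445 and 383 against 240 and 224 reads, a log2 change of -0.54 and an adjusted p of 0.188 in edgeR. In both, the WT and the knockout reads do not overlap. The same holds between Serpina1e and Serpina11, with 1651 and 1527 against 1117 and 1343 reads and an adjusted p of 0.4 in edgeR. These reads are not scaled to library size, and the share of all tested regions without overlap was not counted. The region between Serpina1e and Serpina11 had a log2 change of -0.27, and those at Serpina9, Serpina12, Serpina3b and Serpina3c, and Serpina3n had -0.06, 0.09, -0.09 and 0.23. The 8 regions had a median of -0.18, beside 0.00 over all regions tested.

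**Figure D5:**
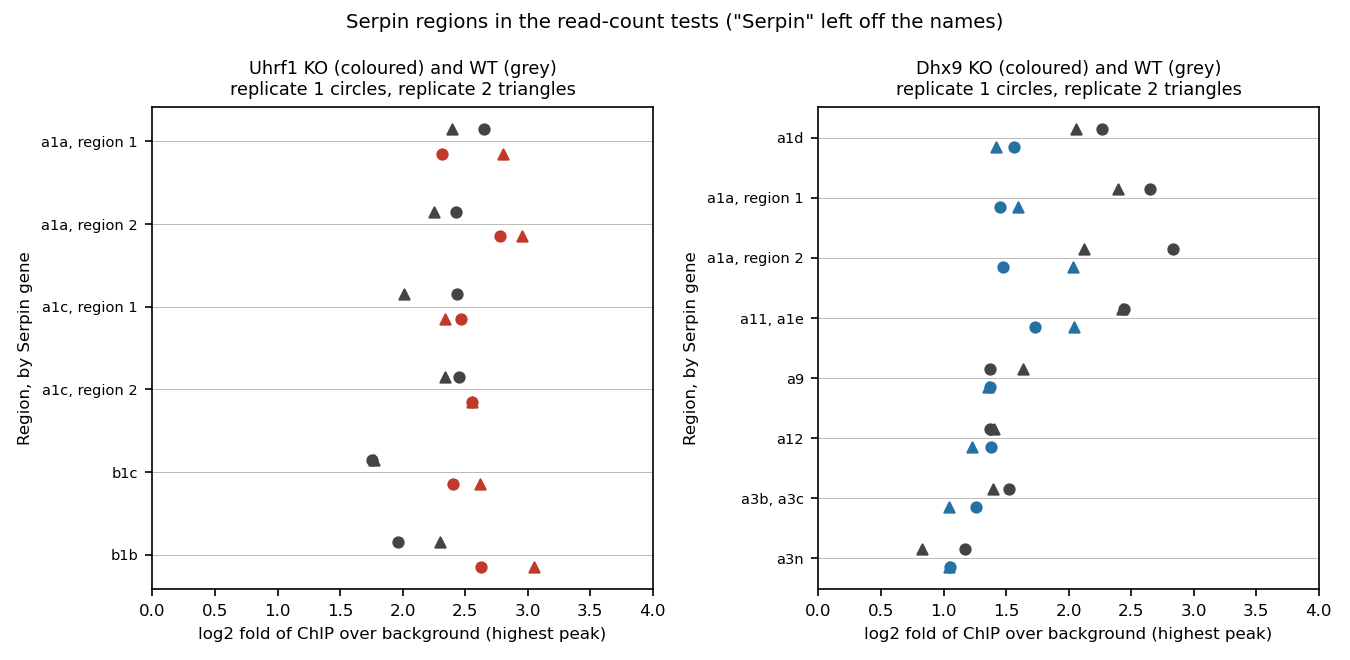
Highest log2 fold of ChIP over background (x axis) in each serpin region of the read-count tests (rows, by gene) for WT libraries in grey and knockout libraries in colour, with circles for replicate 1 and triangles for replicate 2. In the right panel the Serpina1a region with 2.65 and 2.40 in WT has 1.45 and 1.59 in Dhx9 KO libraries. In the left panel Uhrf1 KO folds rest on another background than the WT folds.

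The proteases that serpins restrain were read in the same way, from a list of 16 genes. In WT cells 12 of the 16 had a peak in the window in both libraries, and 6 had one at the promoter, beside 23.7% of all genes. The median called share was 26.5%, against medians of 8.86% and 8.30% over all genes in WT replicates 1 and 2. Both Uhrf1 KO libraries had a peak at 8 of the 16, beside 37.7% of all genes, and both Dhx9 KO libraries at 10, beside 55.4%, where both WT libraries had one at 59.7% of all genes. F10, coagulation factor X, was called over 94.6% and 85.0% in WT, 12.3% and 87.7% in Uhrf1 KO and 63.6% and 73.4% in Dhx9 KO libraries. F2, prothrombin, and C1ra had WT peaks in both libraries and none in Uhrf1 KO cells. They were 2 of the 16, and the share of all genes with this pattern was not counted. Elane, the gene of neutrophil elastase and the main target of α1-antitrypsin, had no peak in WT or Uhrf1 KO cells and 22.6% in Dhx9 KO replicate 1 alone.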

How the data were processed

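H3K9me3 ChIP-seq was read from 6 deposited peak lists, 1 for each library, with 0 columns left unassigned, and 12 samples were not analysed here. The submitters' processing notes name Bowtie2 2.3.4.3, SAMtools, Picard 2.8.0, deepTools 3.0.2 and SICER 0.0.51. Per the methods, reads were single-end and were aligned to mm10, and the aligned reads were then subsampled to lessen differences in depth between libraries. Uhrf1 KO replicate 2 still had 1.85 times the ChIP library size of replicate 1. The authors called peaks in each library with epic2, a form of SICER, keeping duplicates. Each deposited peak carries a ChIP read count and a background count, which the authors did not normalise, a log2 fold of ChIP over background, a p-value with its FDR, and a score, which per the files is the log2 fold on another scale. Only the counts, log2 folds and FDR were used here. The methods name WT input as background for all libraries, but at identical peaks the background counts for Uhrf1 KO were not those of the other 4 lists.

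Gene positions came from the deposited annotation, which holds a reporter insertion of 2762 bp on chromosome 2. Positions behind it were moved back, and the end of Serping1 then fell at 84775444, as in the reference annotation. Windows were transcripts with 5 kb on each side, promoters 1 kb on each side of a start. Peaks of WT and 1 knockout were merged where they overlapped. A region was called lost with peaks in both WT and no knockout library, gained in the opposite case and kept with peaks in all 4. Regions covered over at least 80% in each library were tested with the quasi-likelihood test of edgeR 4.0.16 (R 4.3.3) on summed ChIP counts, with TMM library sizes, called length as an offset and Benjamini-Hochberg adjustment over all regions at 0.05. On simulated counts with 200 regions changed 2-fold, this test found 190 of them with 5 false calls for Uhrf1 KO (2528 regions) and 192 with 7 for Dhx9 KO (4701 regions). All simulated regions had the same called length and a common spread between libraries. The simulation therefore cannot show how the test behaves with the length offset or with regions that vary unequally. DESeq2 1.42.0, other library sizes, other filters, flanks and merging rules, all 6 libraries in 1 fit, a replicate block and the omission of each library were tried as alternatives. Replicate numbers did not pair the libraries. Alignments used Biopython 1.88.

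The members and lists were chosen with earlier results of these data known. Named were the 3 genes of each class with the highest mean WT share, genes with a promoter peak in both WT libraries, genes with no peak in any library, lost and gained regions (at most 15 by log2 fold where there were more) and regions past the test or nearest to it. Other genes were named after their values were seen. The values of 1 gene outside the clusters are not reported here, and it is kept in counts and class totals. The methods call the libraries of a genotype biological replicates and the labels do not say how they were separated, so p-values measure the spread between these libraries, which may be technical. Duplicates were kept, so reads are not all independent molecules.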

Additional observations from a re-analysis of the deposited data

How the results depend on the processing

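Of 21 serpin regions lost in Uhrf1 KO cells, 10 were found among peaks of a log2 fold of at least 1, 9 with an equal number of peaks per list and 13 without the flank, and leaving out 1 library gave 24 (without Uhrf1 KO replicate 1) to 45 (without replicate 2). Gains in Uhrf1 KO cells went from 3 to 7 with a 20 kb flank and ranged from 3 to 7 without 1 library. For Dhx9 KO, losses went from 3 to 6 with an equal number of peaks and to 7 (without WT replicate 2) to 14 (without Dhx9 KO replicate 1) without 1 library. Gains went from 4 to 2 without the flank, to 8 with 20 kb and to 5 to 17 without 1 library. Serpin windows lower in both Uhrf1 KO libraries went from 30 to 16 with an equal number of peaks, and those higher from 5 to 11 without Uhrf1 KO replicate 1. Both of these alternatives for windows were chosen after seeing the data. The cause of these changes was not tested.

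At an FDR of 1e-10 the mean called share of the Serpina windows was 66.9% in WT and 48.7% in Dhx9 KO cells. In the same setting it was 1.59% in WT and 0.392% in Uhrf1 KO cells on chromosome 1, 7.72% and 11.0% on chromosome 13, and 6.62% in WT and 6.06% in Dhx9 KO cells outside the clusters. With an equal number of peaks it was 55.5% in WT and 38.8% in Dhx9 KO cells for Serpina, 8.45% in WT and 12.1% in Uhrf1 KO cells on chromosome 13, and 5.02% in WT and 4.19% in Dhx9 KO cells outside. Without the flank it was 77.3% in WT and 68.7% in Dhx9 KO cells for Serpina, 1.98% in WT and 0% in Uhrf1 KO cells on chromosome 1, and 11.7% and 11.0% on chromosome 13. A cluster gap of 500 kb moved none of these.

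In the read-count tests over all regions, 221 passed for Uhrf1 KO in edgeR, 111 in DESeq2, 51 with all 6 libraries in 1 fit, and 0 both with equal library sizes and among all regions called in every library, where 5 and 4999 had an unadjusted p under 0.05. Without 1 library the count was 55 (without WT replicate 2) to 356 (without Uhrf1 KO replicate 1). Of the serpin regions 0 passed for Uhrf1 KO, and 1 without the length offset. For Dhx9 KO 28 passed, against 9 with all 6 libraries, 1 among all regions called in every library, 11 with equal library sizes and 15 without the offset, and 9 (without WT replicate 2) to 734 (without Dhx9 KO replicate 2) without 1 library. Of the serpin regions 1 passed, 0 in the last 3 of these settings and 0 to 4 without 1 library. Where a genotype kept 1 library, it was assumed to vary like the others. The filter on low counts removed 0 regions.

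Replicate numbers were shared between genotypes, but same-numbered libraries did not deviate together, with r = 0.065 for Uhrf1 KO and -0.069 for Dhx9 KO over regions. With 2 libraries per genotype both pairs give the same r by construction. With a replicate block 80 regions passed for Dhx9 KO, 2 of them serpin regions, both at Serpina1a, and 212 for Uhrf1 KO, 0 of them serpin regions.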
